A study of Monodelphis domestica with 8 samples.

Results

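Among the H3K4me3 peaks called on the autosomes of the opossum fetal brain, 7194 carried a single H3K9Ac peak and no H3K27me3. They are the H3K4me3 peaks of chromosomes 1 to 8 that are narrower than 5000 bp, share at least 1 bp with exactly 1 H3K9Ac peak and share none with H3K27me3, and they are called members here. They made up 32.6% of the 22086 autosomal H3K4me3 peaks (exact 95% interval 32.0% to 33.2%) and 76.9% of the 9357 that overlapped H3K9Ac at all, out of 23987 H3K4me3 peaks in the whole list. They were chosen by the width of the H3K4me3 peak and by its overlap with H3K9Ac and H3K27me3, so these counts describe the choice. The rule used neither the H3K4me3 score nor the score and width of the H3K9Ac peak, nor H3K9me3, nor position within the autosomes. It fixed the place of the H3K9Ac peak only as far as the overlap does.

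Female fetuses of Monodelphis domestica, the gray short-tailed opossum, a laboratory marsupial, gave the brains at embryonic day 13. Each mark was measured by ChIP-seq, which sequences the DNA that an antibody pulls down from chromatin, in 2 libraries made from pools of 2 sisters each. The first pool came from a mother and a father of the LL2 line and the second from an LL1 mother and an LL2 father, and all 4 antibodies were applied to both pools. The 2 libraries of a mark share 1 deposited list, so there is a single value per peak, without replicate error, and no test over samples was possible. Differences between groups of peaks are therefore given as values side by side, without a call, and 95% intervals cover the counting of peaks only. The depth behind the lists is unknown, since they hold no read counts. The sources used here do not name the genome build, and no genome or annotation in these coordinates was used. Regions are given by position only, without genes or sequence, and the tissue could not be checked against marker genes. Whole brain holds many cell types, and peaks of different marks that overlap may come from the same or from different cells, which these lists cannot tell apart.

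H3K4me3 is trimethylation of lysine 4 of histone H3, laid down by SET1 and MLL methyltransferase complexes at the start of genes, above all at CpG-rich promoters. H3K9Ac is acetylation of lysine 9 of the same tail, written by acetyltransferases such as GCN5 and PCAF and found on nucleosomes beside the start sites of active genes. H3K27me3 is the mark of Polycomb repressive complex 2, and its presence together with H3K4me3 defines the bivalent promoters of developmental genes. H3K9me3 marks constitutive heterochromatin and silenced repeats. A peak with H3K4me3 and H3K9Ac and without H3K27me3 therefore has the marks of an active promoter, although the lists do not show transcription.

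The H3K4me3 signal of the members was strong and spread over a wide range. The score is the authors' own value for each peak, with a lowest value near 50 in this list. At the members the median H3K4me3 score was 710.8, with the middle 50% between 372.1 and 1082, a lowest score of 50.12 and a highest of 3233. All autosomal H3K4me3 peaks together had a median of 344.3. Few members were near the bottom of the scale: 87 of 7194 scored below 60 (1.21%, 0.970% to 1.49%) and 372 below 100. The 5th percentile of the score was 98.18 at the members and 56.15 over all autosomal H3K4me3 peaks. The median width was 2551.5 bp, with the middle 50% between 1938 bp and 3230 bp and the narrowest member at 601 bp.

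In median H3K4me3 score the members lay above the peaks without H3K9Ac. They lay below those with 2 or more H3K9Ac peaks and below the acetylated peaks of 5000 bp or more. The 9726 autosomal peaks with neither H3K9Ac nor H3K27me3 scored 154.4 at the median and were 1502 bp wide. The 3003 peaks with H3K27me3 and no H3K9Ac had 193.3 and 1759 bp, and the 644 with both had 657.6 and 2942 bp. Unlike the members, these 3 classes have no width limit. Under 5000 bp the 522 peaks with both marks had 549.1 and 2547 bp, about the width of the members. The 2913 with H3K27me3 only had 188.8 and 1729 bp, and the 9630 with neither mark 152.3 and 1494 bp. Above the members stood the 751 peaks of the same width limit with 2 or more H3K9Ac peaks, at 1132 and 3539 bp, and the 768 acetylated peaks of 5000 bp or more, at 2049. The lower quartile of the members, 372.1, was close to the upper quartile of the peaks with neither mark, 385.1, so the 2 distributions overlapped.

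**Figure D1:**
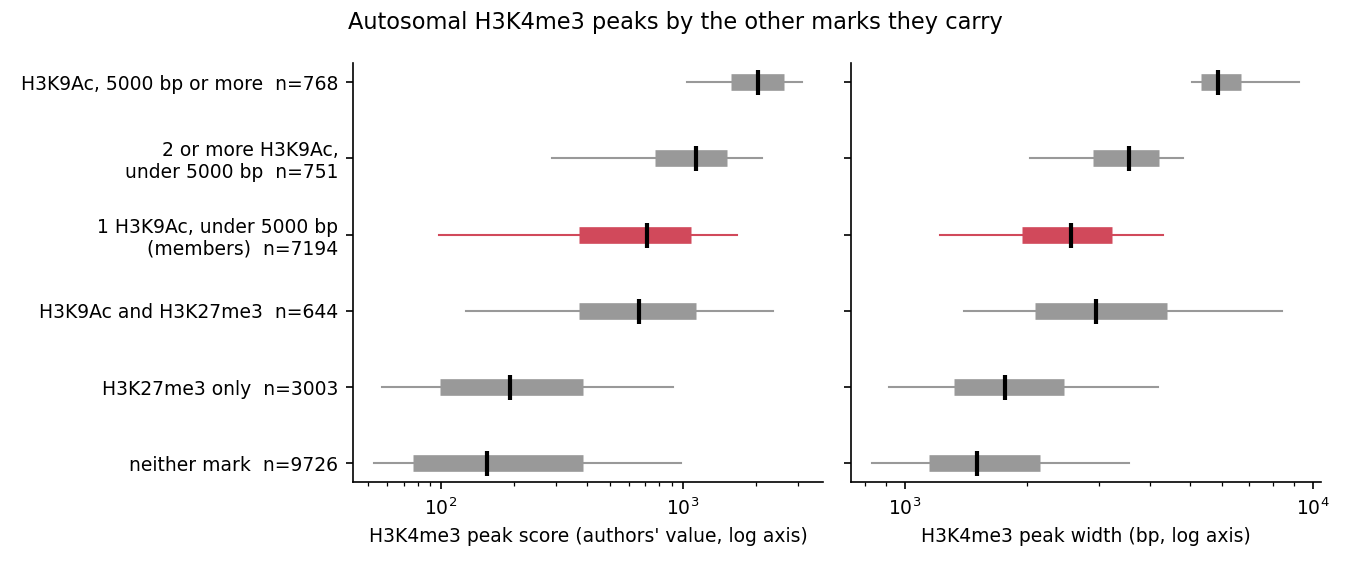
H3K4me3 peak score (left) and width (right) for the 6 classes of autosomal H3K4me3 peaks, both on log axes, with the median (black tick), the middle 50% (thick bar) and the 5th to 95th percentile (thin line). The members, in red, have a median score of 710.8, against 154.4 for peaks with neither mark and 1132 for peaks with 2 or more H3K9Ac peaks.

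Wider peaks have higher scores, so the classes were also compared at equal width, in 9 classes of 500 bp. Among peaks under 5000 bp the members' median H3K4me3 score exceeded that of peaks with neither mark by 558.5, and by an average of 243.5 within 1 kb classes of width. At every width from 500 bp to 5000 bp the median H3K4me3 score of the members was above that of peaks with neither mark. Between 2000 and 2500 bp it was 591.0 in 1481 members and 400.2 in 1215 peaks with neither mark. Between 4500 and 5000 bp it was 1507 in 227 members and 1185 in 82 such peaks. The members' median was also above that of peaks with both H3K9Ac and H3K27me3 in 9 of 9 width classes, although 8 of those peaks fell in the narrowest class. Against peaks with 2 or more H3K9Ac peaks there was no such order, the members being higher in 5 of 9 classes. Between 3500 and 4000 bp the medians were 1197 for 691 members and 1264 for 145 peaks with 2 or more.

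The share of H3K4me3 peaks that were members rose with the H3K4me3 score and fell again at the top. In the lowest decile of all autosomal scores (50.01 to 66.09) 6.02% of peaks were members and 80.0% had neither mark. In decile 9 (957.5 to 1343) 63.3% were members and 15.4% had neither mark. In the highest decile 42.7% were members, 29.8% were acetylated peaks of 5000 bp or more and 11.8% had 2 or more H3K9Ac peaks. Members were thus most common among strong peaks short of the very strongest. The width limit keeps peaks of 5000 bp or more out of the members, and wider peaks have higher scores. The fall in the highest decile therefore follows at least in part from the rule.

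The member with the highest H3K4me3 score had a faint H3K9Ac peak. The members named after it all had H3K9Ac scores above the members' median of 96.35. The highest H3K4me3 score, 3233, belonged to the member on chromosome 3 from 483837455 to 483842399, 4945 bp wide. Its H3K9Ac peak had a score of only 56.62 and lay under 23.1% of it, and the next H3K4me3 peak was 0.049 kb away. The member next in score, on chromosome 1 from 137850139 to 137854536, had an H3K4me3 score of 3100 and an H3K9Ac score of 482.9, with 71.9% of its width under H3K9Ac. This member stood alone, 247.5 kb from any other H3K4me3 peak. A score of exactly 3100 recurs at 110 peaks of the whole H3K4me3 list, and 31 peaks score higher. How this repeated value arises is not stated, so the rank of this member is uncertain. The next members by score were on chromosome 2 from 266819751 to 266824348 (H3K4me3 score 3038, H3K9Ac score 222.3), on chromosome 3 from 456556600 to 456561335 (2931 and 204.3) and on chromosome 1 from 157042139 to 157046369 (2830 and 155.2).

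The width limit fell inside a continuous range. The members just under it were on chromosome 8 from 166081805 (4999 bp, H3K4me3 score 2302), chromosome 4 from 95820125 (4995 bp, 1173) and chromosome 2 from 373042155 (4991 bp, 2287). The peaks just over it that met the other conditions were on chromosome 2 from 103602223 (5000 bp, 1800) and from 81909363 (5005 bp, 1659) and on chromosome 3 from 176962925 (5005 bp, 1610). The median H3K4me3 score was 1597 in the 36 members of 4900 bp or more and 1667 in the 38 such peaks of 5000 to 5099 bp. In all, 395 peaks with 1 H3K9Ac peak and no H3K27me3 were excluded by width.

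The H3K9Ac peaks at the members were described next. The 7194 members held 7155 different H3K9Ac peaks, 60.3% of the 11858 on the autosomes. The median H3K9Ac score at the members was 96.35, with the middle 50% between 64.8 and 148.5 and a highest value of 805.7. The median H3K9Ac width was 1127 bp. H3K9Ac scores cannot be set against H3K4me3 scores, since each list has its own scale.

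Among H3K9Ac peaks, those at members were of the stronger kind. Counting each peak once, the 7155 at members had a median score of 96.39 and a median width of 1126 bp. The 1186 autosomal H3K9Ac peaks without H3K4me3 had 59.71 and 790 bp, the 762 at peaks with H3K27me3 had 66.30 and 876 bp, and the 1505 that shared an H3K4me3 peak with another H3K9Ac peak had 77.08 and 893 bp. Only the 1250 at H3K4me3 peaks of 5000 bp or more had a median in the same range, 99.83 and 1158.5 bp. A part of the members nevertheless rests on faint acetylation: 1294 (18.0%, 17.1% to 18.9%) had an H3K9Ac score below 60, near the lowest score of that list, 50.01. Among all 11858 autosomal H3K9Ac peaks the share below 60 was higher, 2800 (23.6%, 22.9% to 24.4%). Those 1294 had a median H3K4me3 score of 488.5, below that of all members.

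The 5 members with the highest H3K9Ac scores were wide ones. The highest H3K9Ac score, 805.7, was on chromosome 2, where the member from 142717820 to 142722182 had an H3K4me3 score of 995.2 and 78.8% of its width under H3K9Ac. Another of the 5 highest lay on the same chromosome from 142893786 to 142898248 (H3K9Ac score 628.8, H3K4me3 score 1440). The others were on chromosome 5 from 154934744 to 154939345 (646.7 and 2258), on chromosome 3 from 458218219 to 458222971 (597.2 and 2516) and on chromosome 1 from 630557702 to 630561649 (562.9 and 1969). At the chromosome 3 member the 2 peak centres coincided and H3K9Ac covered 84.4% of the H3K4me3 peak. All 5 were at least 3948 bp wide, and the H3K9Ac peak lay under at least 63.9% of each.

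Stronger H3K4me3 went with stronger H3K9Ac, moderately. Across the 7194 members the Spearman rho between H3K4me3 score and H3K9Ac score was 0.43, and within 1 kb classes of H3K4me3 width it averaged 0.33. The values of single classes ranged from -0.01, among members under 1 kb, to 0.44. With the members ranked by H3K4me3 score and split into 4 groups of equal size, the median H3K9Ac score was 70.60, 86.81, 104.7 and 150.8 from the lowest group to the highest. These points share 1 list per mark and the same chromatin pools, and neighbouring peaks are not independent, so rho is given as a description.

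The called H3K9Ac peak mostly occupied the inner part of the methylated region. The H3K9Ac peak lay wholly inside the H3K4me3 peak in 6363 members (88.4%, 87.7% to 89.2%). It crossed the low-coordinate end only in 414 and the high-coordinate end only in 377, and it covered the whole H3K4me3 peak in 40. A median of 48.0% of the H3K4me3 peak was under H3K9Ac, with the middle 50% between 34.7% and 61.8%. This share rose with the H3K9Ac score. In 4 groups of about equal size ranked by that score, its median was 35.1%, 42.2%, 50.8% and 59.6%. The Spearman rho of the 2 was 0.47, and it averaged 0.74 within 1 kb classes of H3K4me3 width. H3K4me3 extended past H3K9Ac by a median of 883 bp on the longer side and 337 bp on the shorter side.

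The overlap and the width limit bound the distance between the centres of the 2 peaks, so the following values describe the members and are not set against an expected distance. The median distance was 241.5 bp, 51.6% of members had centres at most 250 bp apart and 94.7% at most 1000 bp apart. The H3K9Ac centre fell between 40% and 60% of the way along the H3K4me3 peak in 3497 members (48.6%, 47.4% to 49.8%). It lay on the low-coordinate side in 51.9% (50.8% to 53.1%) of the 7189 members with distinct centres, so the sides of the chromosome were used about equally. The largest distance, 2899.5 bp, was at the member on chromosome 5 from 214573872 to 214578539, whose H3K9Ac peak reached only 161 bp into it. The next were on chromosome 2 from 280215012 to 280219861 (2435 bp toward the low-coordinate side) and on chromosome 4 from 423561397 to 423565282 (2268.5 bp toward the high-coordinate side).

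**Figure D2:**
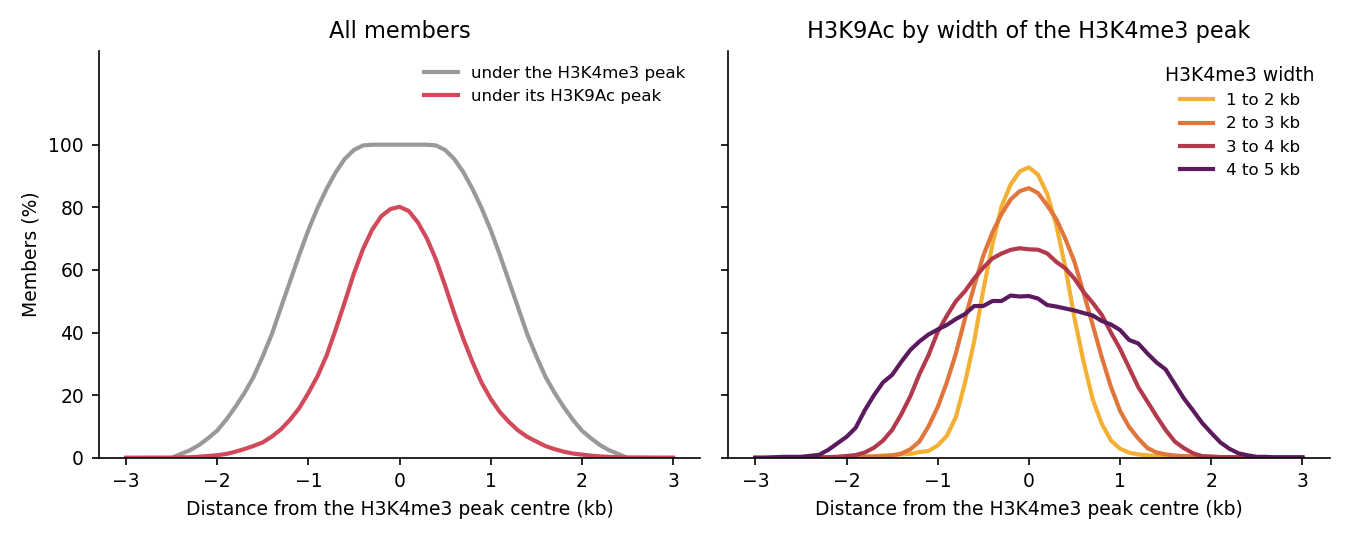
Percentage of members under the H3K4me3 peak and under its H3K9Ac peak against the distance from the H3K4me3 peak centre in kb (left), and the H3K9Ac curve for 4 classes of H3K4me3 width (right). The percentage under H3K9Ac is highest at the centre for members of 1 to 2 kb. For those of 4 to 5 kb the curve is a lower and broader plateau. The curves count members at each position and do not show the shape of single H3K9Ac peaks.

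Wider members were not acetylated in proportion to their width. From the class of 1000 to 1500 bp to that of 4500 to 5000 bp, the median H3K9Ac width went from 866 bp to 1410 bp. The acetylated part of the H3K4me3 peak went down from a median of 65.5% to 29.4%. Part of this is arithmetic, since the same H3K9Ac width is a smaller share of a wider peak. The rule also leaves out peaks with 2 or more H3K9Ac peaks, which went from 0.164% to 24.1% of H3K4me3 peaks between these 2 classes. With the overlaps of all their H3K9Ac peaks summed, such peaks had more of their width covered at equal width. Between 3500 and 4000 bp it was 56.7% against 35.3% in members. Since a sum is set beside a single H3K9Ac peak, this difference is largely built into the classes.

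The distance between the centres was larger in wide members. Its median was 135.5 bp at 500 to 1000 bp, 144 bp at 1000 to 1500 bp and 146.5 bp at 1500 to 2000 bp. It was 240 bp at 2500 to 3000 bp and 863 bp at 4500 to 5000 bp. To compare widths, the distance was expressed as a percentage of the room that the H3K9Ac peak had inside the H3K4me3 peak, where 0% is central and 100% touches an end, for the 6363 members that enclose it. This displacement had a median of 38.2%. It was 68.1% at 500 to 1000 bp, where 24 members enclose their H3K9Ac peak, and 48.3% at 1000 to 1500 bp. It was 34.1% at 1500 to 2000 bp, 32.3% at 2000 to 2500 bp, 43.5% at 3000 to 3500 bp and 55.5% at 4500 to 5000 bp. Relative to this room, the H3K9Ac peak was most central in members of 1500 to 3000 bp, and less so in narrower and wider ones. In bp the centres were no farther apart in the narrower members, where the H3K9Ac peak has less room. At 100 bp from the centre of the H3K4me3 peak, toward the high-coordinate end, 90.4% of members of 1 to 2 kb were under H3K9Ac and 50.9% of those of 4 to 5 kb.

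**Figure D3:**
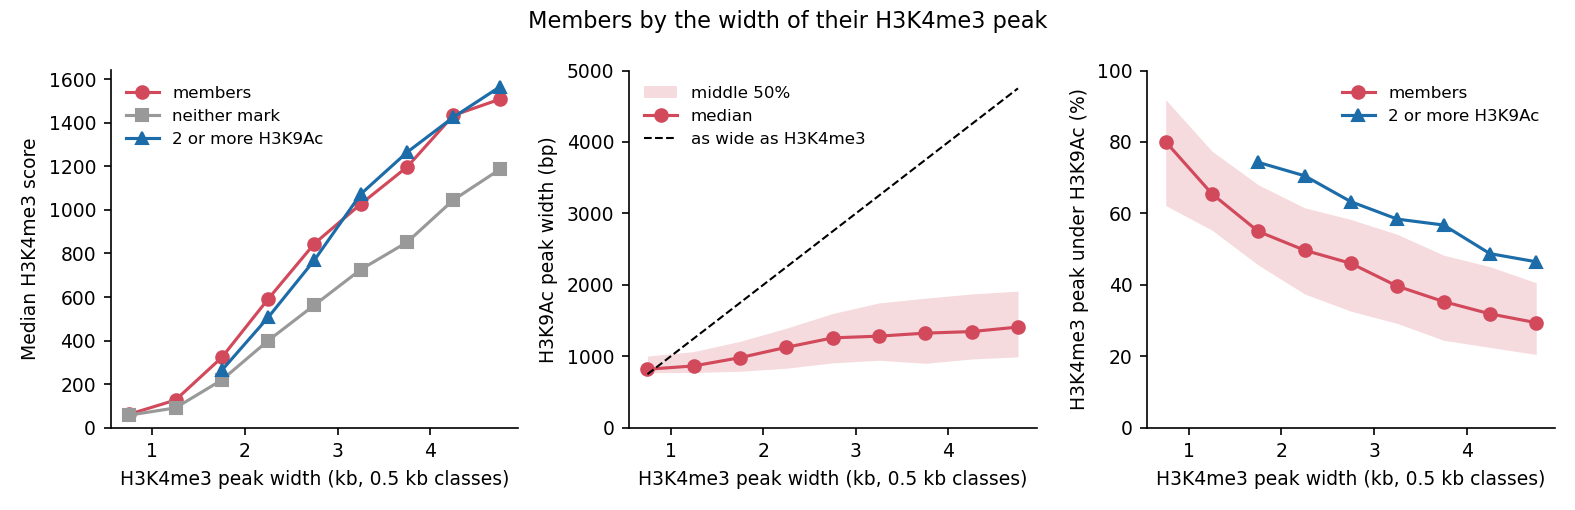
Median H3K4me3 score (left), H3K9Ac peak width (middle, with the middle 50% shaded) and percentage of the H3K4me3 peak under H3K9Ac (right, members shaded likewise) in 0.5 kb classes of H3K4me3 width. Median H3K9Ac width rises slowly, to 1410 bp in the widest class, while the covered percentage goes down to 29.4%. Peaks with 2 or more H3K9Ac peaks (classes of at least 20 peaks), whose overlaps are summed, have a higher covered percentage at each width.

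Members whose H3K9Ac peak ran past an end of the H3K4me3 peak were weaker and narrower in H3K4me3. The 791 in which it crossed 1 end had medians of 254.3 (H3K4me3 score) and 1627 bp (width), against 756.3 and 2649 bp in the 6363 that enclosed it. Their H3K9Ac scores were close, with medians of 92.19 and 97.01. The 40 members wholly covered had the lowest H3K4me3 median, 93.16, and a high H3K9Ac median of 139.1. Their median width was 1205 bp, and a covered peak cannot be wider than its H3K9Ac peak. H3K9Ac lay wholly inside in 59.9% of members of 1000 to 1500 bp and 95.5% of those of 2500 to 3000 bp. The difference in width is therefore at least partly built in. Across members the Spearman rho between H3K4me3 score and width was 0.83. Whether the scores of these groups differ at equal width was not tested. In 87 members the H3K9Ac centre lay outside the H3K4me3 peak, which the rule of 1 bp admits. The smallest overlap, 1 bp, was on chromosome 1 from 484378807 to 484381246, whose H3K9Ac peak had a score of 283.4.

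Most members had no close neighbour. The nearest other H3K4me3 peak was a median of 27.6 kb away and the nearest other member 75.5 kb. The former was 51.7 kb with only the top-scoring 50% of H3K4me3 peaks and 42.8 kb with 1 median per 1 Mb bin. Still, 1036 members (14.4%, 13.6% to 15.2%) had another H3K4me3 peak within 1 kb and 1664 (23.1%) within 5 kb. Of the peaks with neither mark, 21.4% (20.6% to 22.3%) had another H3K4me3 peak within 1 kb, and of those with 2 or more H3K9Ac peaks 13.0% (10.7% to 15.7%). Where the neighbour lay within 1 kb, it had neither mark in 584 cases (56.4%) and was itself a member in 369 (35.6%). The 1036 members with such a neighbour had a median H3K4me3 score of 539.9, against 749.8 for the 5530 with none within 5 kb. Their median widths also differed, 2218.5 bp against 2616.5 bp, and wider peaks have higher scores. Across members the Spearman rho of H3K4me3 score with the distance to the nearest other H3K4me3 peak was 0.13. Within 1 kb classes of width it averaged 0.01. Whether the 2 groups differ in score at equal width was not tested.

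The members farthest from any other H3K4me3 peak were on chromosome 4 from 141395197 to 141397798 (2652 kb), on chromosome 5 from 73845951 to 73849605 (2434 kb) and on chromosome 7 from 112060602 to 112063282 (2311 kb). Their H3K4me3 scores were 1072, 1260 and 716, and their H3K9Ac scores 155.7, 117.2 and 200.7, all above the medians of the members (710.8 and 96.35), the last of the H3K4me3 scores only just.

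H3K9Ac lay more often on the side that faces the nearest other H3K4me3 peak, at distances under 20 kb. Beyond that the interval of the share included 50%. Where another H3K4me3 peak was within 1 kb, the H3K9Ac centre was displaced toward it in 668 of 1036 members (64.5%, 61.5% to 67.4%). At 1 to 5 kb the share was 56.0% (52.0% to 59.9%) of 627, at 5 to 20 kb 55.3% (52.6% to 57.9%) of 1395, and at 20 to 100 kb 51.3% (49.5% to 53.1%) of 2971. The neighbour's own marks went with this: the share was 78.0% (73.5% to 82.2%) of 369 where the neighbour within 1 kb was a member, and 54.8% (50.7% to 58.9%) of 584 where it had neither mark. H3K9Ac peaks that bridge both neighbours contribute to the value of 78.0%, and a neighbour with neither mark cannot be bridged. Among the 242 members with a member within 1 kb whose H3K9Ac peak lay wholly inside, 73.1% (67.1% to 78.6%) were displaced toward it. With neighbours of any class within 1 kb it was 61.3% (57.8% to 64.7%) of 801. At 1 to 5 kb the share was 60.6% (54.4% to 66.6%) of 259 beside a member. Beside a peak with neither mark it was 53.1% (47.0% to 59.2%) of 271, an interval that includes 50%. Neighbouring members enter these counts as pairs and are not independent.

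**Figure D4:**
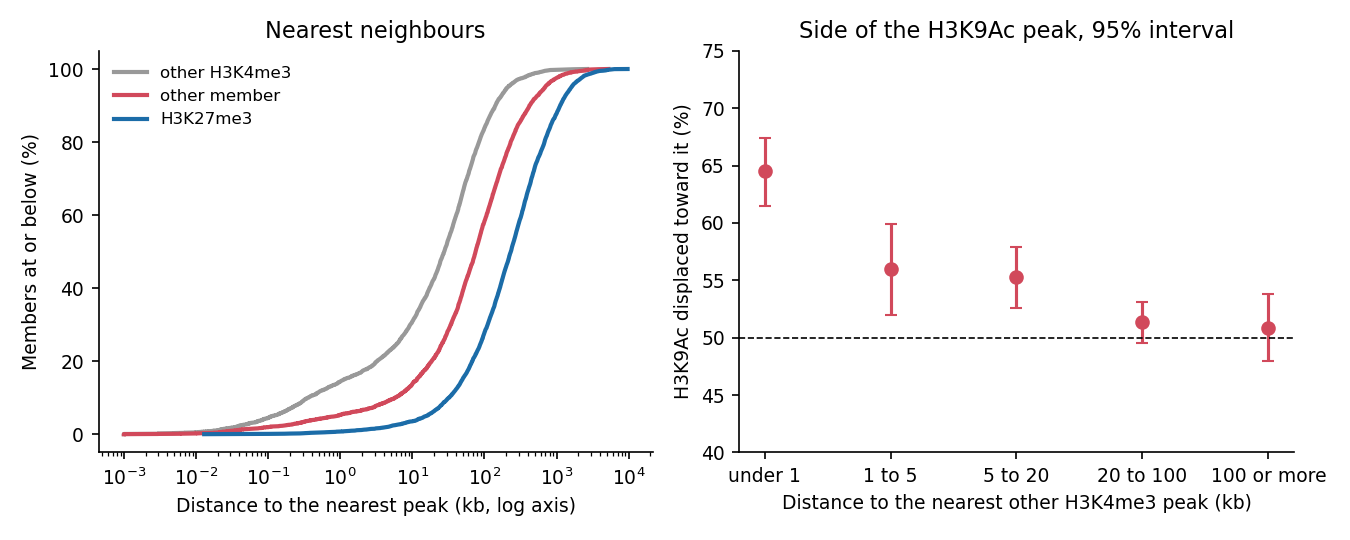
Cumulative percentage of members by distance in kb (log axis) to the nearest other H3K4me3 peak, other member and H3K27me3 peak (left), and the percentage of members whose H3K9Ac centre is displaced toward the nearest other H3K4me3 peak, with exact 95% intervals, by the distance of that peak (right). The share is 64.5% within 1 kb and close to the dashed 50% line beyond 20 kb.

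There were 346 pairs of successive members less than 5 kb apart, with a median gap of 766 bp. In 39 pairs both overlapped the same H3K9Ac peak. Sharing held for 1.08% of members, for 0% with H3K4me3 peaks under 500 bp apart joined, and for 0% where 50% of the H3K9Ac peak had to lie inside. The last setting all but excludes sharing, because H3K4me3 peaks of the list do not overlap one another. Of the other 307 pairs, the member with the higher H3K4me3 score also had the higher H3K9Ac score in 179 (58.3%).

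With members less than 10 kb apart joined, 991 (13.8%) lay in 471 runs, of which 429 were pairs and 42 held 3 or more. The longest run held 5 members on chromosome 2 from 197431931 to 197455078, over 23.1 kb. Its H3K4me3 scores ran from 57.45 to 1617 with a median of 90.89, and its highest H3K9Ac score was 92.06, so this run was mostly of weak peaks around 1 strong one. The next runs held 4 members each, on chromosome 2 from 130416090 to 130434352 and on chromosome 3 from 496970363 to 497003089. Their lowest H3K4me3 scores were 416.1 and 512.2 and their median H3K9Ac scores 117.8 and 116.4.

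The distance to H3K27me3 was between that of unacetylated peaks and that of the broadest acetylated ones. The nearest H3K27me3 peak was a median of 232.2 kb from a member (413.0 kb when only the top-scoring 50% of H3K27me3 peaks were counted), against 183.8 kb for peaks with neither mark and 338.1 kb for acetylated peaks of 5000 bp or more. Members and these classes exclude H3K27me3 overlap by definition, so only the distance beyond the peak is informative. Within 5 kb of H3K27me3 lay 156 members (2.17%, 1.84% to 2.53%), 5.70% (5.24% to 6.18%) of the peaks with neither mark, 0.932% (0.376% to 1.91%) of those with 2 or more H3K9Ac peaks and 0.521% (0.142% to 1.33%) of the acetylated peaks of 5000 bp or more. Those 156 had a median H3K4me3 score of 599.0 and a median H3K9Ac score of 76.88, against 721.2 and 99.92 in the 5192 members at 100 kb or more. The median widths were 2331.5 bp and 2572 bp in the same order. Across all members the Spearman rho of the distance to H3K27me3 with the H3K4me3 score was 0.03, and with the H3K9Ac score 0.10. Within 1 kb classes of width these averaged -0.01 and 0.09. The closest was the member on chromosome 1 from 500598911 to 500600301, 0.013 kb from H3K27me3, with an H3K4me3 score of 256.0 and an H3K9Ac score of 59.81. The next, on chromosome 3 from 358851968 to 358856456, was 0.022 kb away and strongly marked, with scores of 2161 and 390.8.

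H3K9me3 was rare at H3K4me3 peaks of every class, and its list holds only 699 autosomal peaks. It overlapped 107 of all 22086 autosomal H3K4me3 peaks (0.484%, 0.397% to 0.585%). It overlapped 15 of 7194 members (0.209%, 0.117% to 0.344%), and 22 of 9726 peaks with neither mark (0.226%, 0.142% to 0.342%). The share was 0.533% (0.145% to 1.36%) of the peaks with 2 or more H3K9Ac peaks and 0.651% (0.212% to 1.51%) of the acetylated peaks of 5000 bp or more. Among peaks with H3K27me3 and no H3K9Ac it overlapped 49 of 3003 (1.63%, 1.21% to 2.15%), and among those with both marks 12 of 644 (1.86%, 0.966% to 3.23%). In members under 3000 bp the share was 0.103%. The 15 members were strong in H3K4me3, with a median score of 1306, and wide, with a median of 3347 bp. Their H3K9me3 scores were low, from 50.25 to 82.92 with a median of 56.46, in a list whose autosomal median is 58.09. In 12 of the 15 the H3K9me3 peak also overlapped the H3K9Ac peak.

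The 5 of these with the highest H3K9me3 scores were on chromosome 4 from 385525899 to 385528488 (82.92) and from 399433631 to 399436687 (68.42), on chromosome 3 from 430884935 to 430888601 (62.47), on chromosome 6 from 208542508 to 208547007 (61.72) and on chromosome 3 from 322435304 to 322439738 (61.49). On chromosome 6 the H3K9me3 peak shared no base with H3K9Ac. At the first of them the H3K9me3 peak, 985 bp long, lay wholly within both the H3K4me3 and the H3K9Ac peak. The H3K9Ac scores of these 5 were 173.3, 273.7, 158.0, 51.84 and 182.5, in the same order.

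Members were found on all 8 autosomes at unequal density. There were 2.10 members per Mb over the span covered by peaks. The density was highest on chromosomes 2 (2.45 per Mb), 1 (2.44), 6 (2.35) and 4 (2.34), followed by 8 (1.92) and 3 (1.79), and it was lowest on 5 (1.47) and 7 (1.33). H3K4me3 peaks of all kinds followed a similar order, from 7.77 per Mb on chromosome 2 to 4.45 on chromosome 7. The share of H3K4me3 peaks that were members varied less, from 29.6% (27.3% to 31.9%) of 1519 on chromosome 5 to 35.3% (34.0% to 36.6%) of 5174 on chromosome 1. Neighbouring ranks of this share overlapped in their intervals, such as chromosome 6 (34.6%) and chromosome 4 (34.0%).

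**Figure D5:**
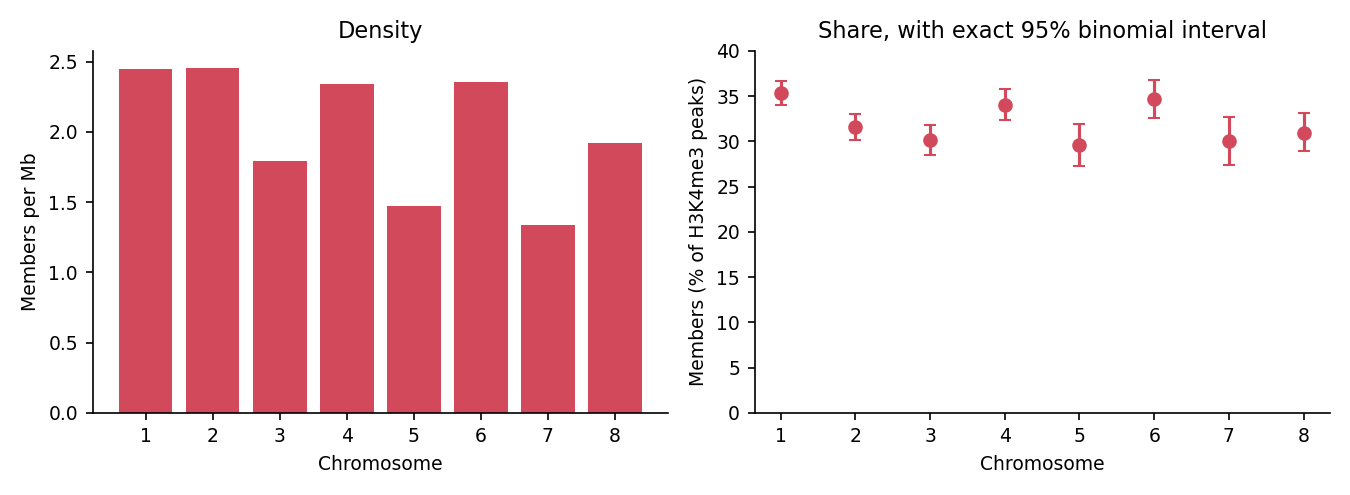
Members per Mb (left) and the percentage of H3K4me3 peaks that are members, with exact 95% binomial intervals (right), for chromosomes 1 to 8. Density ranges from 1.33 per Mb on chromosome 7 to 2.45 on chromosome 2, and the share from 29.6% on chromosome 5 to 35.3% on chromosome 1.

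The make-up of the members was alike across the chromosomes. The median H3K4me3 score ranged from 639.7 on chromosome 5 to 744.8 on chromosome 1, and the median H3K9Ac score from 91.79 on chromosome 8 to 101.1 on chromosome 7. The covered part of the H3K4me3 peak ranged from 47.1% on chromosome 2 to 50.3% on chromosome 7. The H3K9Ac peak lay wholly inside in 86.2% of members on chromosome 7 and 91.4% on chromosome 8.

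Along the chromosomes the members were unevenly spread. A 1 Mb bin held a median of 1 member (middle 50% from 0 to 3), and 1173 of 3417 whole bins held none, although 699 of those had other H3K4me3 peaks. The number of members per bin followed that of all H3K4me3 peaks, which includes them, with a Spearman rho of 0.82. With the number of H3K27me3 peaks rho was 0.36. The 52 bins with 10 or more members, 1.52% of bins, held 624 members, 8.70% of those in whole bins. The share of all H3K4me3 peaks in these 52 bins is not given here. The fullest began at 85 Mb on chromosome 6 (21 members among 40 H3K4me3 peaks), at 172 Mb on chromosome 1 (18 of 36) and at 267 Mb on chromosome 2 (17 of 30). These bins held 0, 3 and 5 H3K27me3 peaks. The first and last 10 Mb of each chromosome's span held 4.60% of members, 6.50% of all autosomal H3K4me3 peaks and 8.57% of those with neither mark, and made up 4.68% of the span.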

How the data were processed

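Per the submitters' processing notes, CASAVA 1.7, Bowtie 1.1.2 and MACS 1.0.1 were used, with settings, genome build, control and threshold not given in the sources used here. The deposited values are 1 list per mark with start, end and score per peak. This score is the value the authors' peak caller gave, how it was computed is not stated in the lists, and it was compared only within a list. Both libraries of a mark name 1 list, which was taken as pooled. Starts are printed counting from 1.

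From these lists overlaps of at least 1 bp, widths, medians, distances between peak ends, shares with exact (Clopper-Pearson) 95% binomial intervals and Spearman's rho were computed with Python 3.11.15, numpy 2.4.6, pandas 2.3.3, scipy 1.17.1 and matplotlib 3.10.9. The span of a chromosome is the stretch between its outermost peaks over the 4 lists. On a simulated list of 4000 peaks the rule recovered 1192 of 1192 planted members. The members, lists and alternatives were chosen with earlier results of these data known. Named regions are those with the highest H3K4me3, H3K9Ac and H3K9me3 scores, the largest distance of centres, the widths nearest the limit, the longest runs, the most isolated members and the fullest bins. The smallest overlap and the members nearest H3K27me3 were named after their values were seen. A RefSeq gene table of the assembly mMonDom1.pri was not used for positions: 4.37% of 21077 autosomal protein-coding genes had an H3K4me3 peak within 500 bp of an end, and 4.44% after moving the genes by 1 Mb.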

Additional observations from a re-analysis of the deposited data

How the results depend on the processing

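No paired analysis was possible because each mark has 1 list for both libraries. Leaving out each autosome in turn kept 110 of 112 values within the 95% interval of the reported one (the count of members within 1.5 times). Of 160 values of the remaining measures (widths, distances, isolated and shared peaks), 115 stayed within it and 45 did not. These 160 include values with an autosome left out, nearly all of which stayed. The 45 therefore came almost wholly from the other settings. Among the 45, the median distance to the nearest other H3K9Ac peak went from 54.7 kb to 102.5 kb with the top-scoring 50% of H3K9Ac peaks. The number of members moved by over 1.5 times in 1 case, with the top-scoring 50% of H3K9Ac peaks, which left 4589. That setting gave a median H3K4me3 score of 896.8, an H3K9Ac score of 135.5, 52.4% of the peak under H3K9Ac and 89.3% wholly inside. The top-scoring 50% of H3K4me3 peaks gave 870.8, 108.7, 44.3% and 94.0%. A limit of 3000 bp gave 514.1, 88.41, 52.7% and 84.6%, with H3K9me3 at 0.103%. No width limit gave a score of 743.5 and 46.8%. Joining H3K9Ac peaks under 500 bp apart gave 739.0, 49.4% and 87.3%, and joining H3K4me3 peaks gave 46.7% and 90.2%. With 50% of the H3K9Ac peak inside, or its centre, 89.5% lay wholly inside. With 1 value per 1 Mb bin the median H3K9Ac score was 99.28, and the median share was 100% wholly inside and 0% for H3K9me3, as most bins hold few members. Only H3K9Ac peaks scoring 60 or more, an alternative chosen after seeing the data, gave scores of 773.2 and 110.8 and 49.6%. The difference of 558.5 in median H3K4me3 score between members and peaks with neither mark under 5000 bp became 243.5 within 1 kb classes of width. The rho of H3K4me3 with H3K9Ac score became 0.33. Scores near 50 limit what can be called acetylated or not: a peak without H3K9Ac may hold acetylation under the threshold, and the depth is unknown.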

Other observations

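The same rule applied outside the autosomes found few peaks. On X it was met by 28 of 500 H3K4me3 peaks (5.60%), with a median H3K4me3 score of 278.4 and a median H3K9Ac score of 65.22. A further 40 X-linked peaks under 5000 bp with 1 H3K9Ac peak also overlapped H3K27me3, of 68 in all. On unplaced sequence the rule was met by 117 of 1401 peaks (8.35%), with medians of 446.0 and 76.72. Both pairs of medians are below those of the autosomal members, 710.8 and 96.35, and these differences were not tested.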
